A study of Mus musculus with 6 samples.

Results

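The genes described here encode the cytosolic translation initiation and elongation factors, measured in mouse jejunum, the stretch of small intestine between duodenum and ileum. They were chosen by symbol: every probe set whose platform annotation names exactly 1 gene, with a symbol of Eif or Eef followed by a digit, or Pabpc1, Paip1 or Paip2. This gave 61 of the 18193 genes named on the array, read by 162 of its 45101 probe sets. Each gene is represented by its brightest probe set, judged by the mean of all 6 arrays. Of the 61 genes, 57 were bright enough to be tested, meaning a log2 level above 4 on at least 3 of the 6 arrays, and 4 (Eif4a3, Eif5a2, Eef1aknmt and Eef2kmt) were not. The rule goes by symbol and not by the difference between the groups, but the list was drawn up with earlier results of these data known. Probe sets that name several genes are not used, and Eif4g1 and Eif2s1, which encode the scaffold of the cap-binding complex and the alpha subunit of eIF2, are not analysed here.

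RNA of 3 double knockout (dKO) mice, numbered 1, 2 and 3, was compared with that of 3 wild type (WT) mice, numbered 1, 3 and 4, with 1 Affymetrix whole-genome array per mouse. The dKO mice lacked both TIS7, the product of Ifrd1, and SKMc15, the product of Ifrd2, a pair of related co-regulators of transcription. All were male, of C57BL/6 background, aged 7 to 10 weeks and caged individually, and all ate a synthetic diet high in saturated fat, with 42% of its energy from milk fat and 0.2% from cholesterol. Tissue for RNA was taken after 3 weeks of the diet. The labels name neither the deleted exons nor the parts of the body concerned, nor do they tell whether the mutant and control mice were littermates. No group on a standard diet is included, so every difference below is between genotypes on the high-fat diet.

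Translation begins when eIF2, loaded with GTP and the initiator tRNA, joins the small ribosomal subunit, and eIF2B recharges eIF2 with GTP after each round. The kinases that sense stress phosphorylate eIF2 and so turn it into an inhibitor of eIF2B, while the eIF4 factors bring the capped mRNA and eIF3 holds the assembly together. The eEF1 and eEF2 factors then carry the ribosome along the message. In the intestine, whose crypt cells divide without pause, these factors are needed for steady protein synthesis.

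The targeted genes were examined first. Ifrd1 had log2 levels of 6.27, 4.80 and 4.85 in dKO mice 1 to 3, against 10.00, 9.84 and 9.91 in WT mice 1, 3 and 4. Ifrd2 had 2.64, 2.74 and 2.59 in the dKO mice, against 8.20, 8.32 and 8.61 in the WT mice. The groups lay far apart for both genes, and Ifrd1 in dKO mouse 1 stood above the other dKO mice. The log2 level of Ifrd1 fell by 4.61 ± 0.38 (SE; adjusted p = 0.00894 by limma). With values under 4 raised to 4, Ifrd2 came out at least 20.8-fold lower; its adjusted p was 2.37e-05 in the limma fit to the values as deposited. Array medians lay between 2.87 and 2.90. Fabp6 and Slc10a2, ileal bile acid genes used as a check on the labelled jejunum, were under 4 on every array, and the enterocyte markers were among the brightest genes.

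Of the 57 translation factor genes tested, 3 were higher in dKO mice and none was lower. These were Eif2b3, Eif2b4 and Eef1e1. Over all 9673 genes tested, 3.17% were higher and 1.6% were lower, so the share of members that passed was close to that of all genes. The 54 others did not pass; at an unadjusted p under 0.05, limma placed 19 members higher and 3 lower, beside 17.6% and 10.4% of all genes tested. Limma's test took 2-sided p-values with Benjamini-Hochberg adjustment over 18013 probe sets at a threshold of 0.05. In bulk tissue, a change in the number of cells of a type and a change in RNA per cell cannot be told apart.

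Most differences were small and positive. Over the 61 genes the log2 difference (dKO minus WT) had a median of 0.15, against 0.016 over all 18193 genes, and ranged between -0.32 and 1.00. It was positive for 50 of the 61 (82.0%), against 53.5% of all genes and 58.1% of the genes bright enough to be tested. The 3 dKO levels lay above the 3 WT levels for 30 members and below them for 3, and the groups overlapped for 28. The same held above WT for 14.9% and below WT for 10.9% of all genes, and for 22.5% and 14.2% of those bright enough to be tested. The medians over members, relative to each gene's WT mean, were 0.11, 0.18 and 0.19 in dKO mice 1 to 3, and 0.03, 0.00 and -0.03 in WT mice 1, 3 and 4. Every dKO mouse had a higher median than any WT mouse, and no test of the list as a whole was made.

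**Figure D1:**
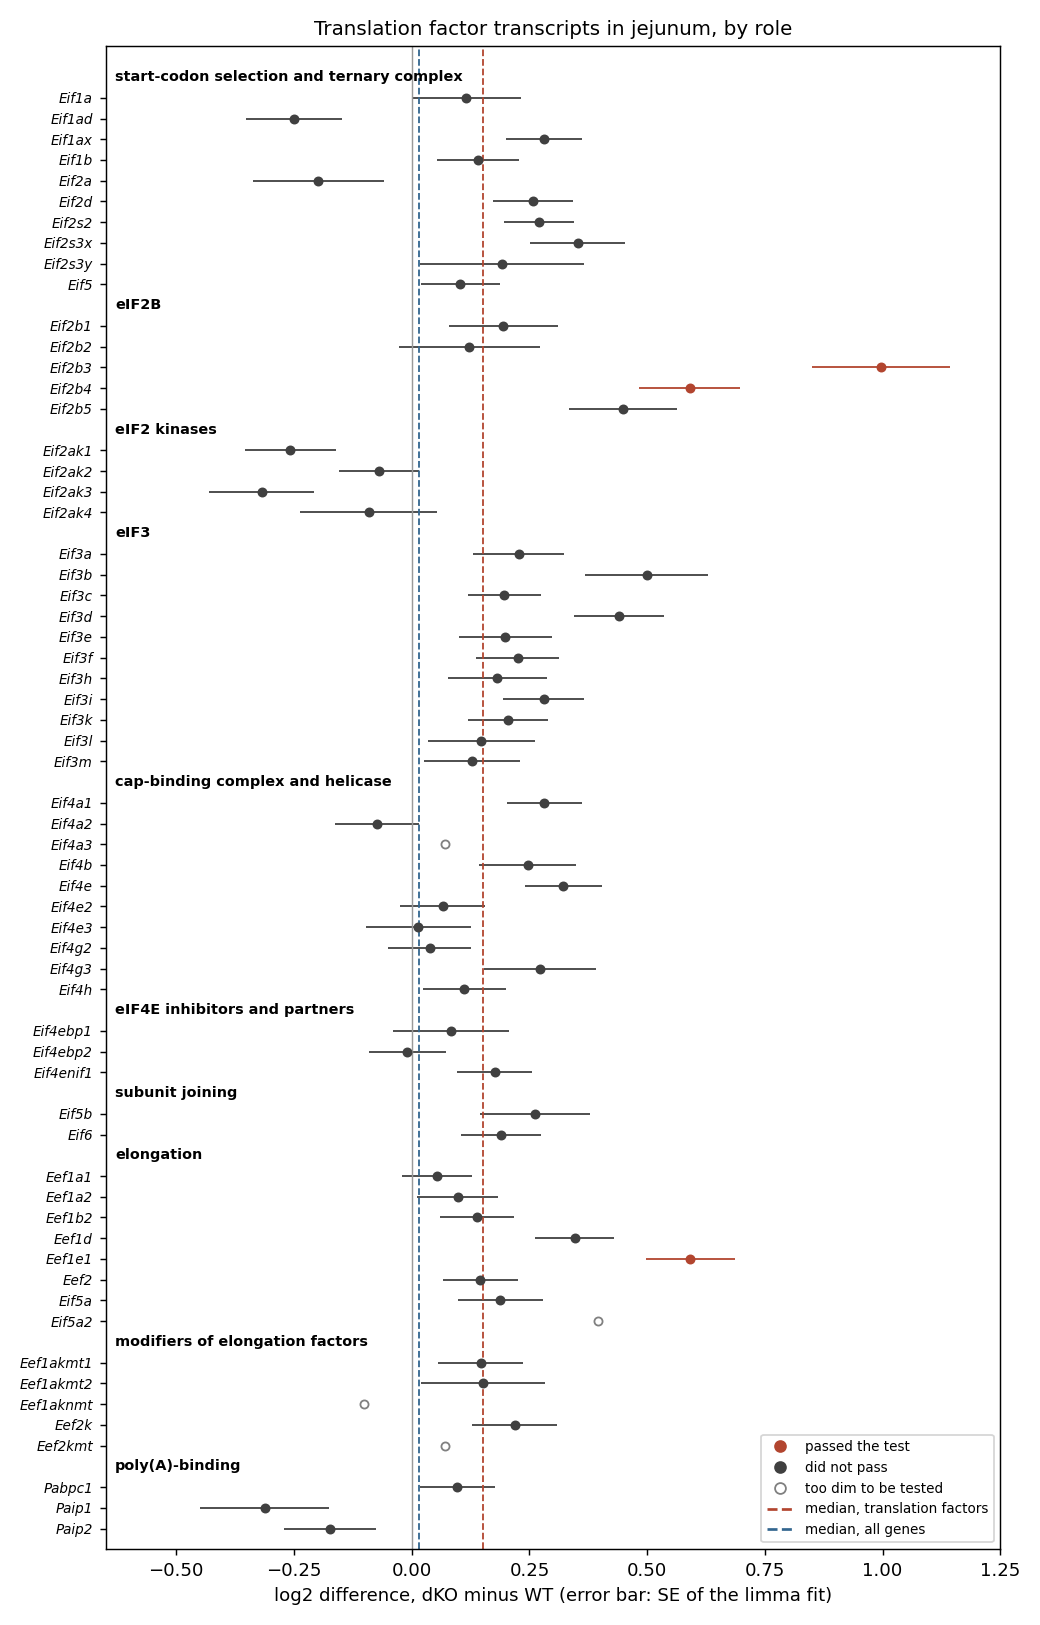
Log2 difference (dKO minus WT) of each translation factor gene, grouped by role, with the standard error of the limma fit as bars; red points passed at an adjusted p of 0.05, grey ones did not, open ones were too dim to be tested, and dashed lines mark the medians of these genes (red) and of all genes (blue). Most points lie to the right of 0, the eIF2 kinases lie to its left, and Eif2b3, Eif2b4 and Eef1e1 are the 3 that passed.

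eIF2B is the exchange factor that returns eIF2 to its GTP-bound form, and its 5 subunits gave the largest median difference of the role groups, 0.45, with all 5 positive. Its median per array, relative to the WT mean, was 0.46, 0.49 and 0.40 in the dKO mice, against 0.03, 0.09 and -0.03 in the WT mice. Eif2b3, the gamma subunit, had 4.80, 5.07 and 4.94 in dKO mice 1 to 3, against 4.13, 4.03 and 3.66 in the WT mice. The lowest dKO level was above the highest WT level, although all of them were near the minimum of 4 used for testing. Eif2b3 was higher by 1.00 ± 0.15 (SE), a 2.00-fold rise (limma adjusted p = 0.0262).

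Eif2b4, the delta subunit, had 8.97, 8.83 and 8.98 in dKO mice, against 8.19, 8.51 and 8.31 in WT mice, with no overlap. It rose by 0.59 ± 0.11 (limma adjusted p = 0.0385). Eif2b5, the epsilon subunit that carries the exchange activity, was named after its values were seen and had 8.59, 8.62 and 8.53 in dKO mice, against 8.05, 8.35 and 7.99 in WT mice. The groups did not overlap, but the difference of 0.45 ± 0.11 did not pass (limma adjusted p = 0.0726). Eif2b2, the beta subunit, was also named after its values were seen and had 8.33, 8.90 and 8.54 in dKO mice 1 to 3, against 8.50, 8.45 and 8.45 in WT mice. Its groups overlapped, since dKO mouse 1 lay below every WT mouse and the other dKO mice above them.

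On their brightest probe sets, the 4 eIF2 kinases went the other way in sign. Their median difference was -0.17 and all 4 were negative, though none passed. Limma's unadjusted p was under 0.05 for 2 of them, beside 10.4% of all genes tested that were lower at that level. Eif2ak3, which encodes the endoplasmic reticulum kinase PERK, had 8.94, 8.78 and 8.58 in dKO mice, against 9.12, 9.02 and 9.11 in WT mice. Every dKO level was under every WT level, and the difference was -0.32 ± 0.11 (limma adjusted p = 0.135). Eif2ak1, the heme-regulated kinase, had 7.93, 8.00 and 7.93 in dKO mice, against 8.16, 8.11 and 8.36 in WT mice. These too did not overlap, at -0.26 ± 0.10 (limma adjusted p = 0.151), and its other 2 tested probe sets gave -0.64 ± 0.19 and -0.60 ± 0.17, neither of which passed (limma adjusted p = 0.102 and 0.0873). Eif2ak4, the amino-acid sensor GCN2, was close to the minimum of 4 and overlapped, at -0.09 ± 0.15 (limma adjusted p = 0.714), and it was 0.02 with the measure of RNA quality as a covariate. Eif2ak2, named after its values were seen, also overlapped, at -0.07 ± 0.08 (limma adjusted p = 0.624). Its other tested probe sets differed in sign, at 0.02 ± 0.13 and -0.07 ± 0.12, and overlapped as well.

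**Figure D2:**
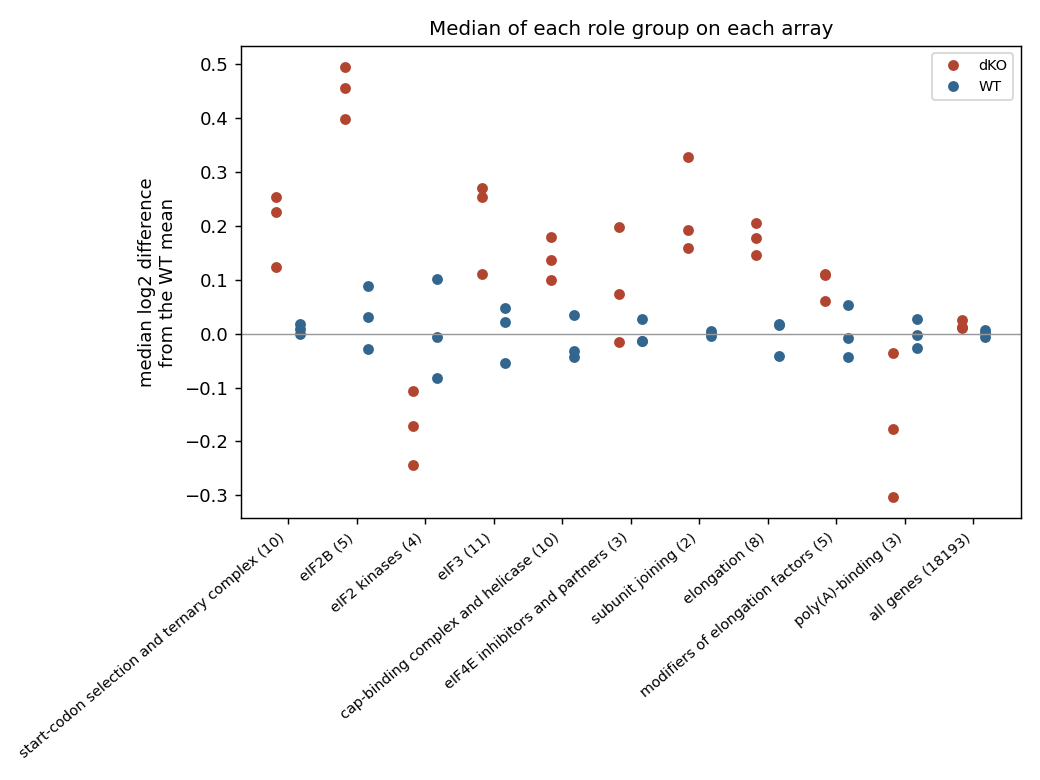
Median over the genes of each role of the level minus the gene's WT mean (log2), one point per mouse, dKO mice 1 to 3 left and WT mice 1, 3 and 4 right in each role. The dKO medians of eIF2B (0.40 to 0.49) stand above the WT medians (-0.03 to 0.09), and those of the eIF2 kinases (-0.24 to -0.11) lie below the WT medians (-0.08 to 0.10).

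Among the 10 genes of start-codon selection and the eIF2 ternary complex, 8 differences were positive, with a median of 0.17, and none passed. Limma's unadjusted p was under 0.05 for 4 higher and 1 lower, beside 17.6% and 10.4% of all genes tested. Eif2s2, the beta subunit of eIF2, had 11.27, 11.31 and 11.26 in dKO mice, against 11.01, 10.99 and 11.02 in WT mice. The mice of a group were within 0.1 of each other and the groups did not overlap, but the difference of 0.27 ± 0.07 did not pass (limma adjusted p = 0.0842). Eif2s3x, the X-linked gamma subunit, had 10.65, 10.44 and 10.65 in dKO mice, against 10.18, 10.34 and 10.16 in WT mice, again without overlap (0.35 ± 0.10, limma adjusted p = 0.0907). Eif1ad, a relative of eIF1A named after its values were seen, was the member of this group whose dKO levels, 9.39, 9.65 and 9.48, all lay below the WT levels of 9.66, 9.79 and 9.83 (-0.25 ± 0.10, limma adjusted p = 0.176). Its other probe set had the opposite sign and overlapped between groups (0.11 ± 0.12, limma adjusted p = 0.587). Whether the probes of Eif2s3x also read its Y-linked copy Eif2s3y, or those of Eif1ax its relative Eif1a, was not tested.

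Subunit joining is represented by Eif5b, the GTPase that joins the subunits, and Eif6, which keeps the large subunit from joining early. Eif6 had 11.27, 11.41 and 11.36 in dKO mice, against 11.09, 11.16 and 11.22 in WT mice, which do not overlap (0.19 ± 0.08, limma adjusted p = 0.206). Eif5b overlapped, with 7.66, 7.45 and 7.84 in dKO mice and 7.46, 7.38 and 7.33 in WT mice (0.26 ± 0.12, limma adjusted p = 0.205). The other tested probe set of Eif5b had the opposite sign and overlapped too (-0.03 ± 0.15, limma adjusted p = 0.928).

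eIF3 is the largest initiation factor and the platform on which the others meet. Eif3g and Eif3j, which encode further subunits, are not analysed here. On their brightest probe sets, all 11 subunits measured gave positive differences, between 0.13 and 0.50 with a median of 0.20, and none passed. Every dKO level lay above every WT level for 7 (63.6%), beside 22.5% of all genes tested. Limma's unadjusted p was under 0.05 for 6, all higher (54.5%), beside 17.6% of all genes tested. Signs were mixed for Eif3c and Eif3l, named after their values were seen. Of the 4 tested probe sets of Eif3c, 3 were positive and 1 was negative (-0.12). Of the 2 of Eif3l, 1 was positive and 1 was negative (-0.02). Eif3b had 9.25, 9.25 and 9.23 in dKO mice, against 8.49, 8.96 and 8.78 in WT mice. The dKO mice were nearly equal while the WT mice were spread out below them, and the difference was 0.50 ± 0.13 (limma adjusted p = 0.0758). Eif3d, which can itself bind the cap of certain mRNAs, had 9.94, 9.88 and 9.93 in dKO mice, against 9.52, 9.58 and 9.33 in WT mice. It narrowly missed the threshold at 0.44 ± 0.10 (limma adjusted p = 0.0548). Eif3a, the subunit at the core of the complex, had 11.45, 11.68 and 11.65 in dKO mice, against 11.43, 11.35 and 11.31 in WT mice, so that dKO mouse 1 nearly met WT mouse 1 (0.23 ± 0.10, limma adjusted p = 0.189).

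Of the 10 cap-binding and helicase genes, 9 differences were positive with a median of 0.09, and the groups did not overlap for 3. Of the 9 that were tested none passed. Every dKO level lay above every WT level for 3 of these 9 (33.3%), beside 22.5% of all genes tested. Limma's unadjusted p was under 0.05 for 3, all higher (33.3%), beside 17.6% of all genes tested. Eif4e, the protein that holds the cap, had 9.86, 9.85 and 9.81 in dKO mice, against 9.56, 9.43 and 9.56 in WT mice. The groups were separate, at 0.32 ± 0.08 (limma adjusted p = 0.0709). A second probe set gave 0.62 ± 0.15 (limma adjusted p = 0.0640) and the third tested one gave -0.07 ± 0.28, so the probe sets of Eif4e differed in sign. Eif4a1, the helicase that unwinds the leader, had 11.81, 11.88 and 11.91 in dKO mice, against 11.64, 11.57 and 11.55 in WT mice (0.28 ± 0.08, limma adjusted p = 0.0882). The 3 eIF4E partners did not pass: Eif4enif1, which moves eIF4E into the nucleus, gave 0.18 ± 0.08 (limma adjusted p = 0.208), and Eif4ebp1, the inhibitor that mTORC1 switches off, gave 0.08 ± 0.12 with overlapping groups (limma adjusted p = 0.688) and changed sign without dKO mouse 2 (-0.03). No partner had a limma unadjusted p under 0.05.

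**Figure D3:**
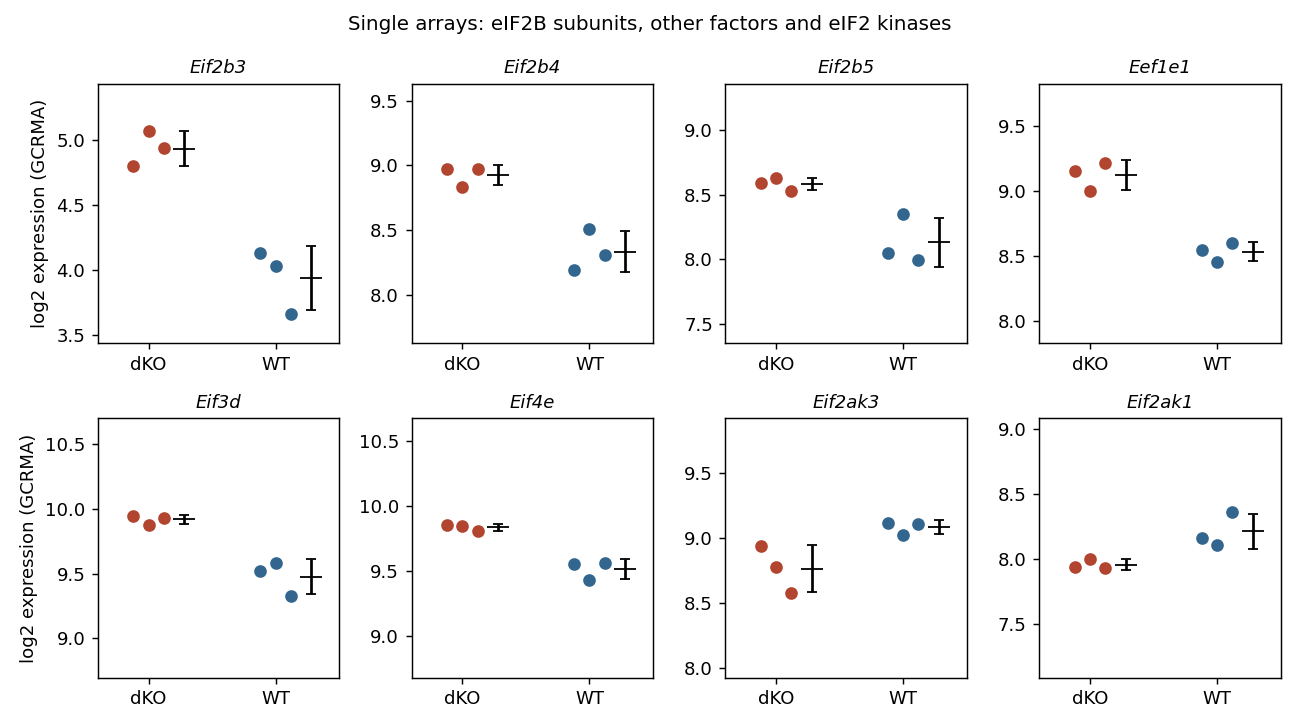
Log2 level on each array of genes named in the text, dKO mice 1 to 3 left and WT mice 1, 3 and 4 right in each panel, with the mean and SD of each group (n = 3) as bars. Eif2b3, Eif2b4 and Eef1e1 are the genes that passed, with every dKO mouse above every WT mouse.

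All 8 elongation genes had positive differences, with a median of 0.17, and the groups did not overlap for 7. Eif5a2, counted in both, was under 4 on every array and was not tested. Among the 7 tested genes the median was 0.15. For 6 of them every dKO level was above every WT level, beside 22.5% of all genes tested. Of the 7, 1 passed as higher, beside 3.17% of all genes tested. Limma's unadjusted p was under 0.05 for 2, each of them higher, beside 17.6% of all genes tested. Eef1e1 had 9.16, 9.00 and 9.21 in dKO mice, against 8.54, 8.45 and 8.60 in WT mice. No WT mouse came within 0.3 of a dKO mouse, and the gene rose by 0.59 ± 0.09 (limma adjusted p = 0.0295). Eef1e1, also called AIMP3, is counted here by its symbol, but its protein is a scaffold of the complex of tRNA synthetases rather than a part of the elongation cycle. Among the elongation factors proper, Eef1d, a subunit of the exchange factor of eEF1A named after its values were seen, had 10.65, 10.77 and 10.83 in dKO mice, against 10.39, 10.41 and 10.40 in WT mice (0.35 ± 0.08, limma adjusted p = 0.0661).

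Eef1a1, which delivers the aminoacyl-tRNA, had 13.68, 13.71 and 13.71 in dKO mice, against 13.67, 13.65 and 13.62 in WT mice. The groups just failed to overlap, at 0.05 ± 0.07 (limma adjusted p = 0.670). Eef2, the translocase, differed by 0.15 ± 0.08 (limma adjusted p = 0.285) and Eif5a, which carries hypusine and eases stalled ribosomes, by 0.19 ± 0.09 (limma adjusted p = 0.232); for both, every dKO level lay above every WT level. Of the 5 modifiers of elongation factors, 3 were tested and none passed, with limma's unadjusted p under 0.05 for 1. That was Eef2k, the kinase that stops eEF2, at 7.88, 7.92 and 7.85 in dKO mice against 7.71, 7.74 and 7.54 in WT mice (0.22 ± 0.09, limma adjusted p = 0.179). The methyltransferase Eef1akmt1 differed by 0.15 ± 0.09 (limma adjusted p = 0.337).

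Pabpc1 coats the poly(A) tail, Paip1 binds it and promotes translation, and Paip2 binds it and opposes translation. On the brightest probe set of each gene none passed, and none had a limma unadjusted p under 0.05. Pabpc1 had 13.09, 13.12 and 13.22 in dKO mice, against 13.08, 13.06 and 13.02 in WT mice (0.10 ± 0.08, limma adjusted p = 0.468). Paip2 had 9.52, 9.78 and 9.64 in dKO mice, against 9.89, 9.75 and 9.82 in WT mice, with overlap (-0.17 ± 0.10, limma adjusted p = 0.298).

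The probe sets of Paip1 disagreed in size. The brightest, 1451740_at, had 7.68, 8.17 and 7.85 in dKO mice, against 8.17, 8.18 and 8.28 in WT mice, and did not pass (-0.31 ± 0.14, limma adjusted p = 0.201). On 1425521_at the dKO mice had 3.48, 5.34 and 2.97, against 9.03, 7.96 and 9.13 in the WT mice. On 1441955_s_at they had 2.48, 4.02 and 2.58, against 8.02, 6.74 and 8.17 in the WT mice. On both of these, dKO mouse 2 was the highest of its group and WT mouse 3 the lowest of its own, and the groups lay far apart. On each of the 2, dKO mice 1 and 3 were under the minimum of 4, so the size of the fall depends on the background model. With values under 4 raised to 4, Paip1 was lower, with a log2 difference of -4.26 ± 0.46 on 1425521_at and -3.64 ± 0.36 on 1441955_s_at (limma adjusted p = 0.0118 and 0.00931). The fit to the values as deposited gave -4.77 ± 0.63 (limma adjusted p = 0.0222) and -4.62 ± 0.53 (limma adjusted p = 0.0156). The fourth probe set was under 4 on all arrays. With 1 mouse left out of the fit to the deposited values, the limma adjusted p on 1425521_at stayed under the threshold without dKO mouse 2 (0.0100) and was 0.0522 to 0.0970 in the other 5 fits. On 1441955_s_at the call was lost without dKO mouse 3, WT mouse 1 or WT mouse 4 (limma adjusted p = 0.0576, 0.0635 and 0.0733). The platform annotation ties 1425521_at and 1451740_at to the same cDNA record, and which part of the transcript each probe set reads was not tested.

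**Figure D4:**
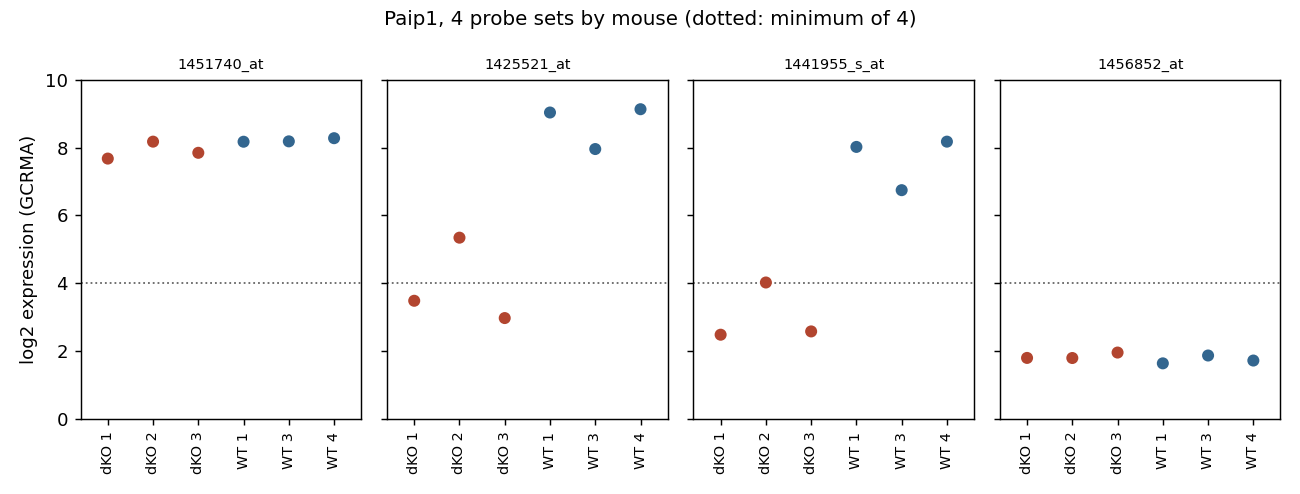
Log2 level of the 4 Paip1 probe sets on each array, dKO mice 1 to 3 left and WT mice 1, 3 and 4 right in each panel, with a dotted line at the minimum of 4. The brightest probe set overlaps between the groups, 2 others are lower in every dKO mouse than in any WT mouse, with dKO mice 1 and 3 under 4, and the last is under 4 on all arrays.

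Agreement between probe sets was examined for all members. Of the 33 genes with at least 2 tested probe sets, 25 gave the same sign on each and 8 gave both signs. Paip1 was the 1 gene whose probe sets differed by over 1 on the log2 scale, and the median range over the 33 was 0.17. Among the 116 tested probe sets of the members, 3 were higher and 2 were lower, beside 2.54% higher and 1.93% lower among all 18013.

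Sequences were read from RefSeq promoter windows of GRCm38.p6, which run from 250 bases before each annotated start to 50 after it. Windows were found for 48 of the 61 genes, 64 in all. The motif CACGTG, the E-box bound by Myc with Max and by the USF and TFE families, reads the same on both strands and was present in 14 of the 64 windows (21.9%), against 1042 of 10125 windows of genes bright enough to be tested (10.3%) and 2349 of all 32851 windows (7.15%). Several genes have more than 1 window, and these can overlap. The 12 members with the motif had a median log2 difference of 0.21, and the 36 without it 0.14. Neither Eif2b4 nor Eef1e1 has it in its window, and no window was found for Eif2b3, the other member that passed. All 15 sites in the 12 genes are printed, with 30 bases each on the gene's strand and the E-box in capitals, because the motif was commoner among these promoters than among the others. Eif5a2 and Eef1aknmt, 2 of the 12, were too dim to be tested.
Eif1b, chr9:120492570-120492599, plus strand: cgtgcggacggtCACGTGgcggcggcgcgc
Eif3a, chr19:60790654-60790683, minus strand: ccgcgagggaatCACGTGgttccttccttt
Eif3f, chr7:108934335-108934364, plus strand: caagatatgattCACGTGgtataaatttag
Eif3k, chr7:28981915-28981944, minus strand: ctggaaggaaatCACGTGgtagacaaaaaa
Eif4a1, chr11:69672595-69672624, minus strand: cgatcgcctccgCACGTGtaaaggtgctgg
Eif4e, chr3:138527028-138527057, plus strand: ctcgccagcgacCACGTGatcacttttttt
Eif4e, chr3:138527192-138527221, plus strand: ggacacgtccgtCACGTGggcaggagccgg
Eif4h, chr5:134639488-134639517, minus strand: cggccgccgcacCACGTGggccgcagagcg
Eif5a, chr11:69920791-69920820, minus strand: gcgctgcgcggcCACGTGaggtgggggagg
Eif5a, chr11:69921443-69921472, minus strand: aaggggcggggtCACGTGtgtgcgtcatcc
Eif5a2, chr3:28781123-28781152, plus strand: actaatccgcagCACGTGgggttgccaggg
Eif5a2, chr3:28781148-28781177, plus strand: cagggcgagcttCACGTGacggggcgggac
Eef1aknmt, chr1:162548475-162548504, minus strand: gtgtggctgctgCACGTGgggcgcggaccg
Eef2, chr10:81176576-81176605, plus strand: acccggcgccgtCACGTGacgcacccaacc
Eef2k, chr7:120842788-120842817, plus strand: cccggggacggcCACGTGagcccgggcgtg

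A 5′ terminal oligopyrimidine start, the C followed by a run of C or T through which mTORC1 controls the translation of many factor mRNAs, was sought as C and at least 4 further C or T at the annotated start on the gene's strand. It was found in 3 of the 64 windows (4.69%), against 2.38% of the windows of genes bright enough to be tested and 2.51% of all windows. Annotated starts can miss the true first base, which such a search depends on. A looser search, for the same run anywhere in the 10 bases before the start and the first 15 of the transcript, found it in 34.4% of the 64 windows, against 32% of the windows of tested genes and 30.7% of all windows. The first 20 bases of the transcripts of the 3 genes are given with the run in capitals.
Eif2s3x, chrX:94212632-94212651, minus strand: CTTTTCTCTCCgagcaagat
Eif3f, chr7:108934415-108934434, plus strand: CTCTCTTTCTCggcaagatg
Paip1, chr13:119428600-119428619, plus strand: CTTTTCTCCggagggaccag
Of these, Eif3f differed by 0.23 ± 0.09 (limma adjusted p = 0.165), and none passed on its brightest probe set.

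Other genes of the pathway were read from lists. Of all genes tested, 3.17% were higher and 1.6% were lower, and 17.6% and 10.4% at a limma unadjusted p under 0.05. Of 16 genes of mTORC1 and translation signalling, 15 were tested and none passed (limma unadjusted p under 0.05 for 1 higher and 2 lower). The median difference over the 16 was -0.02, and Tsc1, a brake on mTORC1, had the smallest p (-0.27 ± 0.10, limma adjusted p = 0.141). Of 9 genes of the integrated stress response, which eIF2 phosphorylation sets off, 7 were tested. None of the 7 passed and none had an unadjusted p under 0.05. Ppp1r15a and Chac1 were under 4 on every array and were not tested. The median over the 9 was -0.09 and Trib3 gave -0.42 ± 0.22 (limma adjusted p = 0.273). Of 9 genes of termination, recycling and re-initiation, 8 were tested and 1 was higher. This was Denr, part of a re-initiation factor, with 9.09, 9.20 and 9.14 in dKO mice against 8.77, 8.80 and 8.70 in WT mice (0.38 ± 0.08, limma adjusted p = 0.0499). Denr thus lay just under the threshold, and its call was not followed through the alternative fits.

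Of 8 genes that make hypusine on eIF5A and diphthamide on eEF2, 6 were tested. Of the 6, 1 was lower and none was higher, with a limma unadjusted p under 0.05 for 2 higher and 1 lower. Dhps, the enzyme of the first step of hypusine synthesis, had 6.29, 6.08 and 6.08 in dKO mice, against 6.86, 7.04 and 6.79 in WT mice, and fell by 0.74 ± 0.11 (limma adjusted p = 0.0259). None of the 8 other poly(A)-binding and mRNA factors passed, with a median of 0.17 and an unadjusted p under 0.05 for 2; Ncbp1 of the nuclear cap-binding complex gave 0.43 ± 0.10 (limma adjusted p = 0.0648). None of the 8 mitochondrial translation factors passed either, although 6 had an unadjusted p under 0.05, all higher, and their median was 0.31; Gfm1, the mitochondrial elongation factor G, gave 0.43 ± 0.09 (limma adjusted p = 0.0522).

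Markers of cell types were read as well, beginning with dividing crypt cells. Of 11, 5 were higher in dKO mice (Top2a, Mcm5, Cdk1, Plk1 and Birc5) and none was lower, beside 3.17% and 1.6% of all genes tested. Of the 11 differences 10 were positive, and Pcna gave -0.05 ± 0.11 with overlapping groups. The summed linear signal of the 11 was 7143 to 7743 in dKO mice, against 5652 to 5968 in WT mice. Enterocyte markers lay the other way in sum, at 97707 to 100490 in dKO mice against 103502 to 105217 in WT mice, with 7 of 8 negative and none called (limma unadjusted p under 0.05 for 1). Fibroblast markers summed to 4418 to 5763 in dKO mice and 2821 to 4663 in WT mice, which overlap, with none of 5 called and an unadjusted p under 0.05 for 2. Sums of crypt stem cell, Paneth, goblet, smooth muscle and macrophage markers overlapped between groups and none of these was called, with a limma unadjusted p under 0.05 for 2 crypt stem cell markers and for none of the others. Of the 5 macrophage markers, 3 were bright enough to be tested. None of the 3 plasma cell markers was called (unadjusted p under 0.05 for 1), at 22243 to 23528 in dKO mice and 18192 to 21785 in WT mice, nor was the 1 tested acinar marker of 2 (unadjusted p under 0.05), with sums (Cela1 and Cpa1, the last under 4 on every array) of 174 to 219 in dKO mice and 120 to 148 in WT mice. RNA quality, as the difference between 3′ and 5′ probe sets of Gapdh and Actb, was 0.60, 0.41 and 0.61 in dKO mice and 0.35, 0.49 and 0.36 in WT mice, with overlap. The part that cell composition played in the differences was not tested. In a fit with this RNA measure as a covariate none of the 57 members passed, and calls over all probe sets fell to 17, against 805 without it. The differences themselves were 1.06 for Eif2b3, 0.44 for Eif2b4 and 0.54 for Eef1e1 in that fit, with a median over the 61 members of 0.16.

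The 3 calls rest on few mice. Leaving out any 1 mouse left at most 1 member higher, Eef1e1 without dKO mouse 2 (limma adjusted p = 0.0426 there, between 0.0112 and 0.191 over all alternatives), and none in the other 5 cases. In those 6 fits the limma adjusted p of Eif2b3 lay between 0.0519 and 0.0881, that of Eif2b4 between 0.0567 and 0.133 and that of Eef1e1 between 0.0426 and 0.105. A variance prior that follows the level and resists outliers called 13 members higher, beside 6.42% of all genes, and a stricter filter on low levels called 6, beside 6.46% of all genes.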

How the data were processed

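The authors deposited log2 levels, which they computed in GCRMA 2.18.0 according to the submitters' processing notes. Settings of GCRMA are not given in the labels or files used here. Array medians were nearly equal, and quantile normalization of the deposited values gave 777 calls over all probe sets, against 805 without it. Each array is a different mouse, so errors include variation between animals, and the number of arrays limits precision. Levels near the bottom of the scale depend on GCRMA's background model. Names came from the platform annotation (34958 with 1 symbol, 932 with several, 9211 with none). After 64 control probe sets were removed, 18013 above a log2 of 4 on at least 3 arrays were fitted with limma 3.58.1 in R 4.3.3 (lmFit, eBayes, dKO minus WT). No 2 arrays were copies: within a group, at least 62.5% of probe sets differed by over 0.1.

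The members, gene lists and roles were chosen with earlier results of these data known. Genes named were the targets; members that passed; in role groups with none, up to 2 by smallest p; a core set of well-known factors; genes with discordant probe sets; and up to 3 from each other list. Tested on simulated data with 18013 probe sets, the fit recovered 10.4% of 67 planted changes of 0.5, 88.1% of 67 of 1 and 97.0% of 66 of 2, with 3 false calls among 133. Small changes were mostly missed in this simulation, which made 133 calls in all, against 805 in the data. The cut-off on p that the adjustment sets depends on the number of calls, so these shares need not hold for the data. Alternatives covered the filter, scaling, variance prior, array weights, probe set choice, RNA quality and leaving out each mouse. Figures used matplotlib 3.10.9.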

Additional observations from a re-analysis of the deposited data

How the results depend on the processing

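Among the genes named by the rule given above, 2 changed sign, and neither passed. Eif2ak4 (-0.09) was 0.011 with the replicate block and 0.021 with the RNA quality covariate. Eif4ebp1 (0.08) was -0.027 without dKO mouse 2, and -0.027 to 0.143 over the 6 fits that left out a mouse. Genes named after their values were seen, such as Eif2b2, and genes of the other lists were not followed one by one through the alternatives. The count of members higher in dKO mice, 3, was 2 with no filter, 4 with the mean over all probe sets of a gene, 6 with a stricter filter on low levels (beside 6.46% of all genes) and 13 with the trended, robust variance prior. It was 0 with the RNA quality covariate, where the median difference of the members was 0.16 and Eif2b3 stood at 1.06, and 0 to 1 when a mouse was left out. The count lower, 0, became 1 (Paip1) with the mean over probe sets, and stayed 0 when a mouse was left out. Over all probe sets, 805 calls became 472 with no filter, 1216 with the stricter filter, 1730 with the trended prior and 17 with the covariate, and 32 to 435 when a mouse was left out. The median difference of the members, 0.15, was 0.15 to 0.19 when a mouse was left out, 0.19 without dKO mouse 1. Eif2b3 passed under 8 of 16 alternatives, Eif2b4 under 8 of 17 and Eef1e1 under 10 of 17. Paip1 passed under 11 of 16 on 1425521_at and 12 of 16 on 1441955_s_at, Ifrd1 under 15 of 17 and Ifrd2 under 17 of 17.

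Mouse numbers shared between groups, 1 and 3, are not said to pair the mice. Their deviations correlated at 0.02 for mice 1 and 0.30 for mice 3, and unmatched pairs between -0.26 and 0.26. With the number as a replicate block, 0 members were higher and 13 probe sets were called in all, with 4 of the 6 mice in pairs, and the median difference was 0.13.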

Other observations

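The genes beside Paip1 in the gene table were read after its values were seen. Nnt, on the side before it, differed by 0.09 ± 0.12 and -0.06 ± 0.08 on its 2 tested probe sets, and neither passed. Mrps30, further out on that side, gave 0.36 ± 0.09 without overlap and did not pass (limma adjusted p = 0.0679). 4833420G17Rik, the next gene after Paip1, fell by 1.83 ± 0.26 on 1 probe set (limma adjusted p = 0.0248) and gave 0.40, 0.61 and 0.99 on the other 3 tested, none of which passed. Tmem267, between that gene and Ccl28, gave 1.63 ± 0.81 with overlapping groups (limma adjusted p = 0.246). The other neighbours read, 1700003P14Rik, Fgf10 and 3110070M22Rik, were too dim to be tested. Ccl28, a chemokine of mucosal epithelium further along, had 1.87, 1.81 and 1.94 in dKO mice against 5.23, 3.34 and 3.75 in WT mice on 1 probe set too dim to be tested, and its brightest probe set gave 0.34 ± 0.24 (limma adjusted p = 0.394).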
